A study of Homo sapiens with 4 samples.

Results

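The 4 human nuclear factor I genes, NFIA, NFIB, NFIC and NFIX, were examined for peaks of 3 ChIP-seq libraries from HepG2 cells, among them a library made with an antibody against NFIC itself. The windows were the gene with 10 kb either side in hg19, namely chromosome 1 from 61542 to 61929 kb for NFIA, chromosome 9 from 14081 to 14399 kb for NFIB, and chromosome 19 from 3359 to 3470 kb for NFIC and from 13106 to 13210 kb for NFIX, before the flanks were added. They held 64 of the 46380 peaks in the 3 lists. Of these, 22 were among the 13643 NFIC peaks, 40 among the 29441 SMRC1 peaks and 2 among the 3296 SATB1 peaks. Each peak that shared at least 1 bp with a window was a member. The windows were set by gene positions, not peak values, but members and lists were chosen with earlier results of these data known.

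HepG2 is an established human liver tumour line. No treatment of the cells is listed for any library apart from crosslinking in 1% formaldehyde for 10 min. Each ChIP library was precipitated with 1 of the study's own antibodies, which it calls Pbodies, against SMRC1, SATB1 or NFIC. SMRC1 (SMARCC1 or BAF155) is a scaffold subunit of SWI/SNF, the complexes that move nucleosomes, and SATB1 is a DNA-binding chromatin organiser of AT-rich sequence. An input library is named in the labels but was not analysed here, and the identity of the cells could not be checked against expression markers, since no expression was measured. There was 1 library per antibody, so no difference between antibodies or loci could be set against a replicate spread and no test between them is given. Intervals on counts and shares cover counting error only. Read totals are unknown, but the values of the peaks place the NFIC library at 1.01 times and the SMRC1 library at 1.29 times the depth of the control, and the SATB1 library at or below it.

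Nuclear factor I proteins bind DNA as homodimers or heterodimers through a conserved N-terminal domain. They recognise a palindrome, TTGGC followed by any 5 bases and GCCAA, or more weakly a single arm of it, TTGGC. The 4 paralogues share this domain and are known as regulators of differentiation in liver, brain, lung and muscle. Because they bind the same sequence, a peak of the NFIC library marks where material recovered by this antibody lay. Whether the antibody also recovered the paralogues was not tested.

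The sequence just before the first annotated start of a gene is shown for the 3 genes whose 5′ boundary in hg19, as given to 1 kb, had a peak of any list within 2 kb, so that the core motif can be compared between them. The sequences are from RefSeq on GRCh38.p14, cover the 250 bases before the start, read 5′ to 3′ along the gene, and have each TTGGC or its reverse complement GCCAA in capitals.
NFIA, chr1:61076977-61077226, plus strand: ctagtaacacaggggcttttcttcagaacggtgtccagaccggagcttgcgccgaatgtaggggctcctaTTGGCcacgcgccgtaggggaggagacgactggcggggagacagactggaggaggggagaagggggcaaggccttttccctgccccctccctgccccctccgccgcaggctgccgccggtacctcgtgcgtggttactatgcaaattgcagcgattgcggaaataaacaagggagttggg
NFIC, chr19:3359380-3359629, plus strand: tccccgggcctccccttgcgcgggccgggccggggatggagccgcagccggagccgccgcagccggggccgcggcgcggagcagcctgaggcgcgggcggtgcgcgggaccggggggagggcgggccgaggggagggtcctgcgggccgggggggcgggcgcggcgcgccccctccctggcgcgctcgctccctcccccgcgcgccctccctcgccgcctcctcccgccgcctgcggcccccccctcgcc
NFIX, chr19:12995225-12995474, plus strand: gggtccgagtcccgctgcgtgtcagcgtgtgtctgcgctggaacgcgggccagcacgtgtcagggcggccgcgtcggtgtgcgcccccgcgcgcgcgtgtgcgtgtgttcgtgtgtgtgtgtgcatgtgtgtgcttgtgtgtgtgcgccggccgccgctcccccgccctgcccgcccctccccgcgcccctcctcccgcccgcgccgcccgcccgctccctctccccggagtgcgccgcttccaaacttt
The NFIA stretch held 1 TTGGC core, which began 180 bases before the start, and the NFIC and NFIX stretches held none. None of the 3 held the full palindrome. The core was present on either strand in 40.8% of the 35116 stretches of this length in the RefSeq table, and the palindrome in 0.0285%. The table has 19 starts for the 4 genes, of which 9 had a core (1 of 3 for NFIA, 6 of 10 for NFIB, 0 of 1 for NFIC and 2 of 5 for NFIX) and 0 had the palindrome. Some of these stretches overlap. The 2 NFIX stretches with a core, from 13024329 and 13024331, hold the same core, which is thus counted in both. The stretches were not placed in hg19, so whether a peak covers them was not determined, and the sequence under the peaks was not used here.

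The question asked of the NFIC list was whether it marks its own gene and those of the paralogues. NFIC-library peaks were present at all 4 genes, the gene encoding NFIC included. There were 11 at NFIA, 5 at NFIX, 3 at NFIB and 3 at NFIC. At least 1 NFIC peak was also found in 54.9% of consecutive genome tiles as long as the NFIA window (407 kb), 51.0% of tiles as long as the NFIB window (338 kb), 32.2% of tiles as long as the NFIC window (131 kb) and 30.9% of tiles as long as the NFIX window (124 kb). A peak in a window of this length was thus common in the NFIC list as a whole. Tiles with at least as many NFIC peaks made up 0.881% for the 11 peaks of NFIA, 1.17% for the 5 of NFIX, 6.85% for the 3 of NFIC and 23.6% for the 3 of NFIB. The tiles also cover DNA without genes and were not matched to gene content.

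In peaks per Mb, NFIX had the highest NFIC-library density, 40.3 (95% interval 13.1 to 94.1), followed by NFIA with 27.0 (13.5 to 48.4), NFIC with 22.9 (4.72 to 66.9) and NFIB with 8.88 (1.83 to 25.9). The intervals of neighbours in this order overlap, so the order is not resolved by these counts. The density of the whole chromosome was 8.33 peaks per Mb for chromosome 19, 5.11 for chromosome 1 and 3.92 for chromosome 9. The chromosome's density lay below the interval at NFIA and NFIX, and within it at NFIC and NFIB. Equal windows directly beside the locus held fewer peaks at NFIA (1 upstream and 2 downstream, against 11). They held similar numbers at NFIC (1 and 2, against 3) and at NFIX (4 and 4, against 5).

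**Figure D1:**
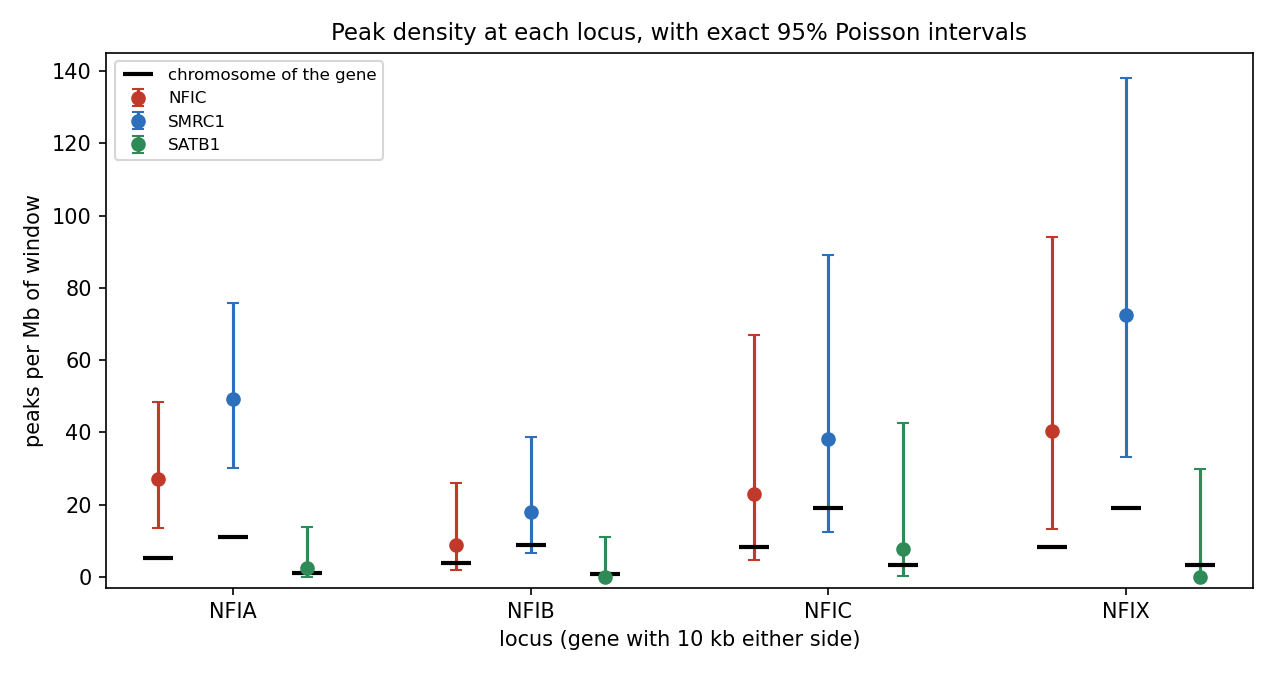
Peaks per Mb (vertical axis) at each locus (horizontal axis) for the NFIC, SMRC1 and SATB1 lists, as points with exact 95% Poisson intervals; black dashes give the density of the gene's whole chromosome in the same list. NFIC and SMRC1 points lie above the dash at every locus, but at NFIB and NFIC their intervals include it.

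SMRC1 peaks were denser than NFIC peaks at each gene, with 20 at NFIA, 9 at NFIX, 6 at NFIB and 5 at NFIC. Tiles with at least as many SMRC1 peaks made up 1.75%, 1.35%, 23.4% and 8.67% of tiles of the corresponding lengths. Equal windows beside the locus held 3 upstream and 2 downstream at NFIA and 0 and 0 at NFIB, but 2 and 5 at NFIC and 6 and 9 at NFIX, where the downstream number equals that of the locus. The SMRC1 density was 72.6 peaks per Mb (33.2 to 138) at NFIX, 49.1 (30.0 to 75.9) at NFIA, 38.2 (12.4 to 89.1) at NFIC and 17.8 (6.51 to 38.6) at NFIB. It was 19.1 over chromosome 19, 11 over chromosome 1 and 8.69 over chromosome 9. The loci thus stood in the same order as in the NFIC list, but the intervals of neighbours overlap here too, so neither order is resolved. The SMRC1 list is longer as a whole, at 9.64 peaks per Mb against 4.47 for NFIC. Over the 4 windows together, 1.00 Mb in all, the density was 22.0 peaks per Mb (13.8 to 33.3) for NFIC and 40.0 (28.6 to 54.5) for SMRC1. These were 4.92 and 4.15 times the density of the whole list. NFIA held 11 of the 22 NFIC and 20 of the 40 SMRC1 peaks. Against each gene's own chromosome, the ratios ran from 2.27 to 5.29 for NFIC and from 2.0 to 4.47 for SMRC1. Like the tiles, the list and chromosome densities cover DNA without genes and were not matched to gene content.

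The SATB1 list, the shortest of the 3, had 1 peak at NFIA, 1 at NFIC and 0 at NFIB and NFIX. Tiles of the same lengths held at least 1 SATB1 peak in 26.0% (NFIA), 10.7% (NFIC), 22.5% (NFIB) and 10.3% (NFIX) of cases. The count over the 4 windows, 2 per Mb (0.242 to 7.22), did not separate from the 1.08 per Mb of the whole list.

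**Figure D2:**
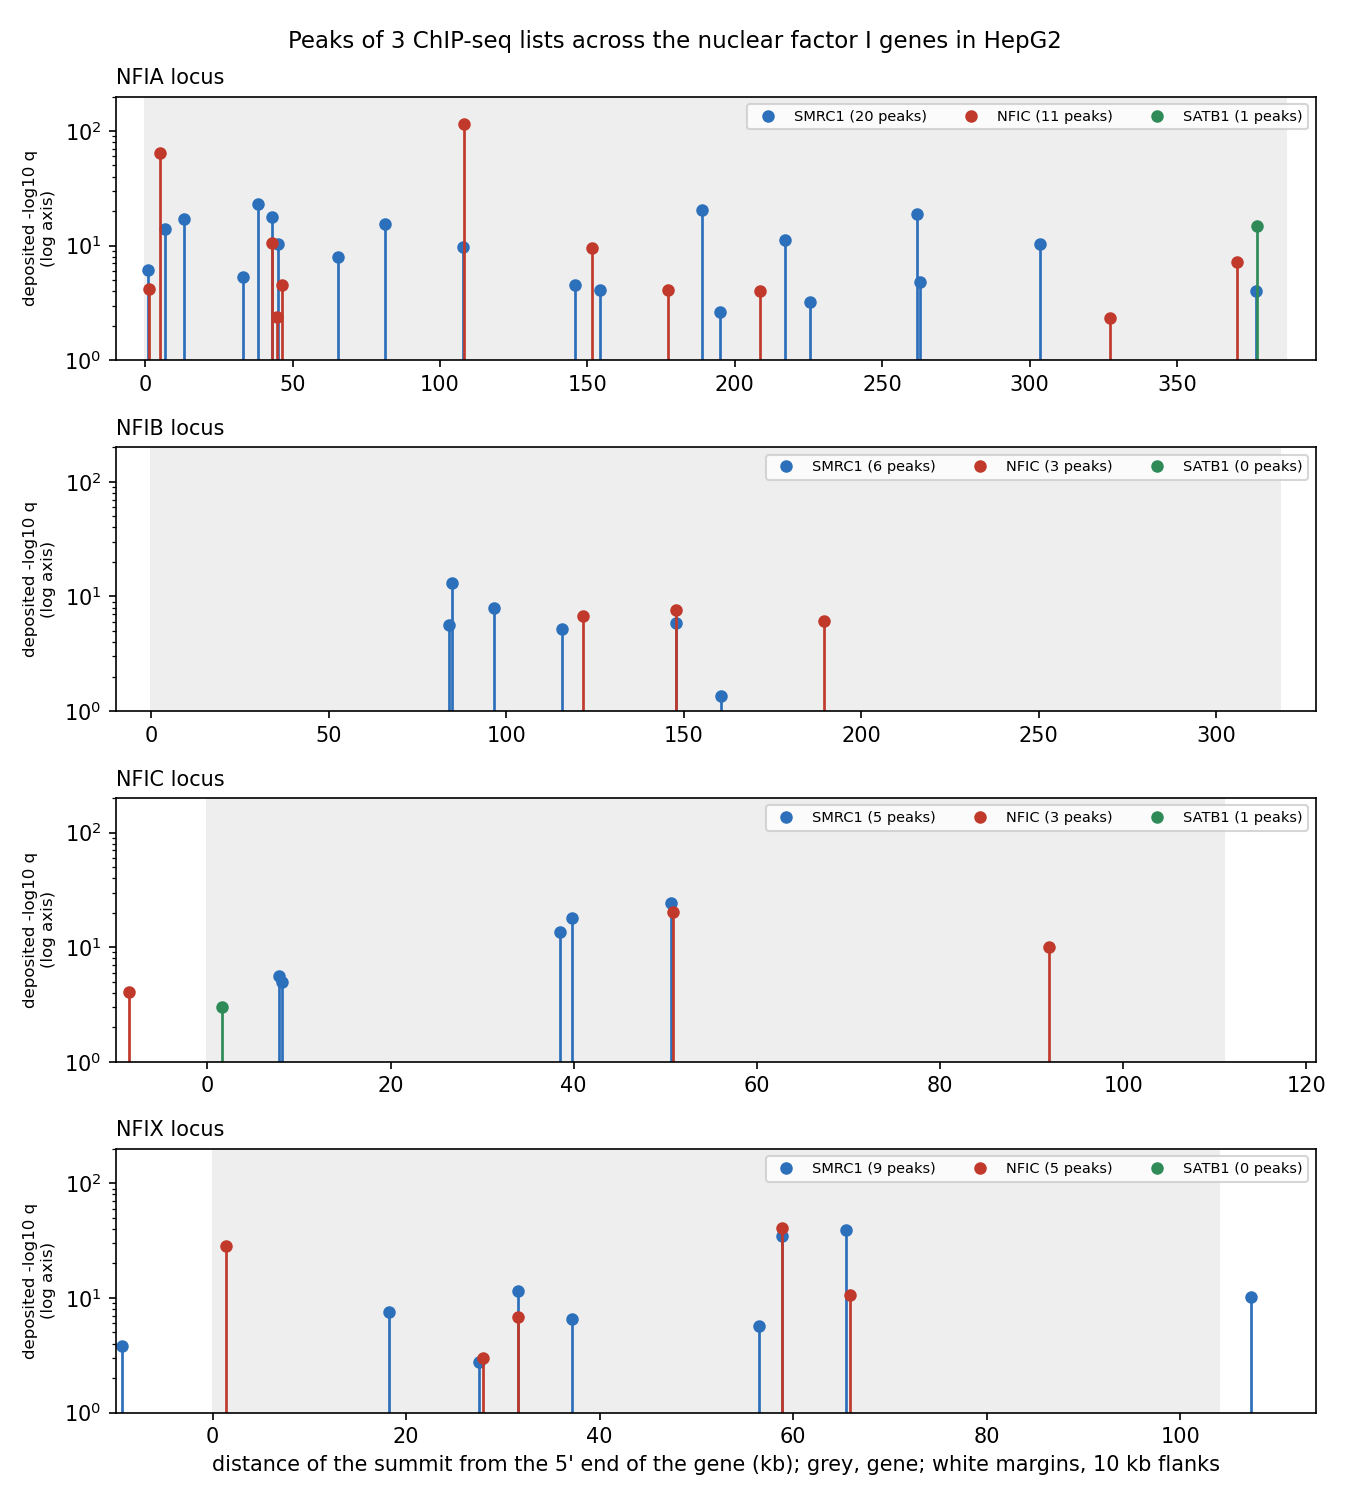
Each peak at the 4 loci, drawn at the distance of its summit from the 5′ end of the gene in kb (horizontal axis) with a height equal to the deposited −log10 q (vertical log axis); grey marks the gene, white margins the 10 kb flanks. The tallest NFIC line stands 108.2 kb into NFIA at 116, no NFIC line stands at the 5′ boundary used for NFIC or NFIB, and the last SMRC1 line of NFIC is at 50.67 kb.

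At its own gene, the NFIC library had no peak at the 5′ end. The nearest was a weak peak 8.521 kb upstream, in the flank, at chr19:3350204-3350566, with a fold of 4.222 (the authors' ratio of summit reads to local background; its values here equal depth-scaled reads plus 1 over background plus 1, which lowers the fold most where the background is low) and a −log10 q of 4.046 (from the authors' peak caller, with a lowest value of 1.022 in this list). Its summit held 16 reads over a control background of 3 fragments, both recovered from the deposited fold and p-value, and 10.8% of the NFIC list had a lower −log10 q. By −log10 q the strongest peak of the locus lay 50.87 kb inside the gene at chr19:3409423-3410249. It had 65 summit reads over 13.0 control fragments, a fold of 4.682 and a −log10 q of 20.46, above 79.3% of the list. Another peak, 91.87 kb from the 5′ end at chr19:3450687-3451117, had 20 reads over 2 fragments and a fold of 6.953, with a −log10 q of 9.969. The rule gives gene ends to 1 kb, so each distance from a 5′ end carries an uncertainty of that size.

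The peak of any list nearest the 5′ boundary of NFIC was the SATB1 peak of this locus, 1.64 kb inside the gene at chr19:3360462-3360783. It was weak, with 20 summit reads, a fold of 3.271 and a −log10 q of 2.999, and only 13.7% of SATB1 peaks ranked lower. It overlapped neither an SMRC1 nor an NFIC peak. SMRC1 peaks followed in 3 places further inside the gene. A pair lay at 7.808 and 8.194 kb (chr19:3366575-3367063 and chr19:3367117-3367428, folds 4.577 and 4.2), another pair at 38.46 and 39.81 kb (folds 4.095 and 6.022), and the strongest at 50.67 kb. The last, chr19:3409278-3409932, had a fold of 7.812 and a −log10 q of 24.36, and it coincided with the strongest NFIC peak. All 5 SMRC1 peaks lay nearer the 5′ than the 3′ end of the gene.

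NFIX, the other paralogue on chromosome 19, had an NFIC peak near its 5′ end. That peak, chr19:13107126-13107670, had its summit 1.396 kb from the 5′ boundary, with 49 reads over 4.62 control fragments, a fold of 8.835 and a −log10 q of 28.38, above 86.6% of the list. No SMRC1 or SATB1 peak overlapped it, and the nearest SMRC1 summit was 10.7 kb away. It ranked second at this locus by −log10 q and first by fold.

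The other 4 NFIC peaks of NFIX lay within the gene, and all 4 overlapped an SMRC1 peak. The strongest by −log10 q, chr19:13164528-13165080 at 58.82 kb, had 85 reads over 11 fragments, a fold of 7.117 and a −log10 q of 40.59, above 92.0% of the list. A peak at 65.89 kb (chr19:13171596-13172242) had a fold of 4.3 and a −log10 q of 10.52. The remaining pair, at 27.94 kb (chr19:13133816-13134225) and 31.56 kb (chr19:13137467-13137774), was weaker, with folds of 3.188 and 3.809. RefSeq lists further NFIX starts 28.5 to 29.3 kb downstream of the first, on GRCh38.p14. These were not placed in hg19, and whether this pair lies at one of them was not determined.

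By −log10 q the strongest SMRC1 peak of the 4 genes was also in NFIX, at 65.49 kb (chr19:13170953-13172301), with a −log10 q of 39.06, above 93.7% of the SMRC1 list. Its fold of 6.942 was below those of SMRC1 peaks in NFIA (7.945) and NFIC (7.812). Of the 9 SMRC1 peaks, 1 lay in the upstream flank (fold 2.607) and 1 in the downstream flank, 107.3 kb from the 5′ end (fold 4.301). In the order of genes in RefSeq, the gene beyond the 3′ end of NFIX is LYL1 and the gene before its 5′ end is DAND5. Whether the flank peaks lie in these neighbours was not determined.

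NFIA, the largest of the loci, carried the NFIC library's 2 strongest peaks at any family gene, by −log10 q and by fold. The first lay 108.2 kb into the gene at chr1:61649048-61650637. It was 1590 bp wide, held 152 summit reads over 9.55 control fragments, and had a fold of 14.4 and a −log10 q of 116, rank 141 of 13643. The second, at 4.997 kb (chr1:61546594-61547770), held 88 reads over 6 fragments, with a fold of 12.63 and a −log10 q of 63.93, rank 507. These exceeded 99.0% and 96.3% of the list.

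Near its 5′ boundary NFIA also had a weak NFIC peak at 1.192 kb, chr1:61543070-61543384. It held 31 reads over 10.0 fragments and had a fold of 2.889, and 12.9% of the list had a lower −log10 q. The SMRC1 peak chr1:61542501-61543510 covered the same place, with a summit at 0.946 kb, the closest of any list to a 5′ end, and a fold of 3.06. RefSeq lists further NFIA starts 4.51 and 5.33 kb downstream of the first, on GRCh38.p14. These were not placed in hg19, and whether the strong peak at 4.997 kb lies at one of them was not determined.

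The other 8 NFIC peaks of NFIA were of middling or low rank. Among the 5 highest by −log10 q were those at 43.0 kb (chr1:61584626-61585287, 10.44), 151.7 kb (chr1:61693452-61694048, 9.555) and 370.3 kb (chr1:61912148-61912566, 7.149). The peak at 43.0 kb was followed by weaker ones at 44.85 and 46.43 kb. Of the 11 NFIC peaks, 8 lay nearer the 5′ than the 3′ end, and for SMRC1 the count was 13 of 20.

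SMRC1 peaks were spread along NFIA, with folds from 2.765 to 7.945 (median 4.213). The strongest by −log10 q and by fold, at 38.21 kb (chr1:61579907-61580593), had a −log10 q of 23.01 and no NFIC peak. Near the 3′ end, 377.0 kb from the 5′ boundary, lay the SATB1 peak of this locus, chr1:61918651-61919256. With 40 summit reads, a fold of 5.744 and a −log10 q of 14.79 it ranked above 95% of the SATB1 list. It covered an SMRC1 peak that was weak, chr1:61918660-61919092, with a fold of 3.037 and a −log10 q of 3.985, and no NFIC peak overlapped it.

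All 3 NFIC peaks of NFIB had a −log10 q below the list median of 9.27, and none lay near the 5′ boundary used. Whether that boundary is a start in use was not determined. The stretch before the first NFIB start in RefSeq is chr9:14532078-14532327 on GRCh38.p14, and the next start is about 210 kb downstream. Neither start was placed in hg19, so the window may leave out the 5′ part of the gene. Measured from the boundary, the peaks lay at 121.6 kb (chr9:14277271-14277598), 147.7 kb (chr9:14251027-14251674) and 189.4 kb (chr9:14209388-14209744). Their folds were 5.93, 5.735 and 4.869 and their −log10 q 6.754, 7.559 and 6.061. Each summit held only 16 to 19 reads over a background of 1.85 to 3.08 fragments. In the same order, they stood above 34.3%, 39.7% and 28.7% of the list by −log10 q and above 66.9%, 64.3% and 49.9% by fold. These were thus peaks of few reads on a low background.

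The SMRC1 peaks of NFIB began 83.86 kb inside the gene as given by the rule, where a pair stood at chr9:14314948-14315376 and chr9:14313991-14314684. The latter was the strongest at this gene by −log10 q, though not by fold, with 44 reads over 5.62 control fragments, a fold of 5.315 and a −log10 q of 13.19. The other 4 lay between 96.5 and 160.6 kb, with folds of 2.968 to 5.616. RefSeq gives 10 starts for NFIB, the most of the 4 genes. They were not placed in hg19, so it was not determined whether the pair lies at an internal start.

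The family peaks were set against the whole NFIC list by −log10 q and fold. Of the 22, 7 (31.8%, exact Clopper-Pearson 95% interval 13.9 to 54.9) had a −log10 q of at least 10. The share over the list, 46.3%, lay within that interval, so the 2 shares did not separate. The median fold of the 22 was 4.49 against 4.87 for the list. The median member stood above 36.0% of the list by −log10 q and 42.2% by fold. Summit reads ranged from 11 to 152 with a median of 24. For SMRC1, 18 of 40 members (45.0%, 29.3 to 61.5) had a −log10 q of at least 10, against 43.7% of that list, and the median fold was 4.28 against 4.08. For SATB1 it was 1 of 2, against 13.8%.

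**Figure D3:**
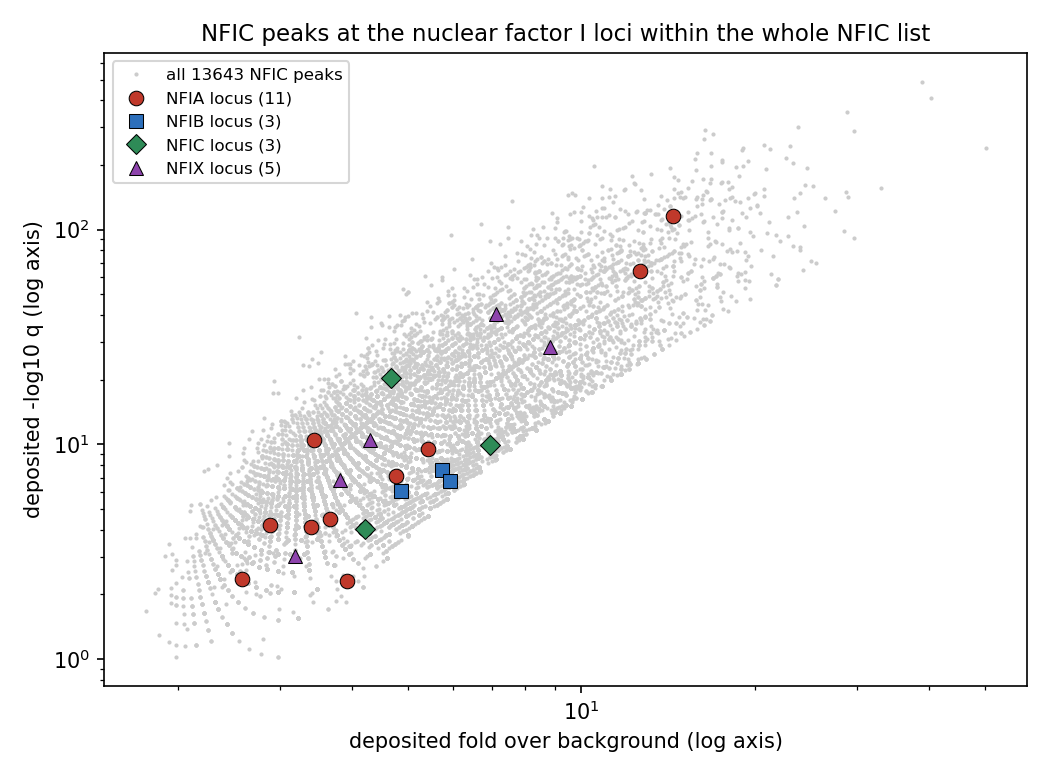
Deposited fold over background (horizontal log axis) and deposited −log10 q (vertical log axis) of every NFIC peak in grey, with the 22 peaks at the 4 loci in colour. The NFIA peaks with folds of 14.4 and 12.63 and the NFIX peaks with folds of 8.835 and 7.117 stand to the upper right, and the 3 NFIB peaks lie between 6.061 and 7.559 on the vertical axis.

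By overlap of at least 1 bp, NFIC and SMRC1 peaks coincided at the family genes in a share near that of the whole lists. By summit distance the share was lower than in the lists, though it came from only 4 pairs. Of the 22 NFIC peaks, 11 (50%, 28.2 to 71.8) lay over an SMRC1 peak, against 51.9% in the whole NFIC list. Of the 40 SMRC1 peaks, 11 (27.5%, 14.6 to 43.9) overlapped an NFIC peak, against 23.7% of that list. With summits no more than 200 bp apart, the count was 4 of 22 NFIC peaks (18.2%, 5.19 to 40.3), against 40.3% of the list. For SMRC1 it was 4 of 40 (10.0%, 2.79 to 23.7), against 18.7%. The list share lay within the interval for SMRC1 and at its upper limit for NFIC. Further pairs lay just beyond the cut, with summits 204, 219 and 246 bp apart. Overlap by at least 1 bp was seen for 4 of 5 NFIC peaks at NFIX, 5 of 11 at NFIA, 1 of 3 at NFIC and 1 of 3 at NFIB. No NFIC peak overlapped a SATB1 peak (0 of 22, upper limit 15.4%; 6.52% of the list), and of the 2 SATB1 peaks 0 overlapped an NFIC peak (27.4% of the list) and 1 an SMRC1 peak (78.5%). Of the SMRC1 peaks, 1 of 40 overlapped a SATB1 peak (8.61% of the list). No site at these genes had peaks of all 3 lists.

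At the 11 shared sites the summits were 25 to 1539 bp apart, with a median of 219 bp, and 4 pairs lay within 200 bp. The pair at 58.82 kb in NFIX was the closest, at 25 bp. Scaled to the depth of the control, this site held 84.4 reads in the NFIC library and 83.9 in the SMRC1 library. The widest separation, 1539 bp, belonged to the NFIA peak at 4.997 kb, whose NFIC summit thus lay well aside from the SMRC1 summit although the peaks overlapped.

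The libraries differed most at the strongest NFIC site in NFIA, at 108.2 kb. There the scaled summit reads were 151 for NFIC and 39.6 for SMRC1, over nearly equal backgrounds of 9.55 and 9.67 fragments, and the summits were 485 bp apart. The NFIX site at 65.89 kb showed the opposite order, with 37.7 scaled reads for NFIC and 82.3 for SMRC1. Over the 11 sites NFIC had the higher scaled reads in 5 and the higher fold in 5. In the NFIC gene the shared site had 64.5 scaled reads for NFIC and 45.8 for SMRC1, yet the NFIC fold was lower, 4.682 against 7.812. The background was 13.0 fragments at the NFIC summit and 4.99 at the SMRC1 summit, 204 bp away. At 8 of the 11 sites the backgrounds were within 20% of each other.

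**Figure D4:**
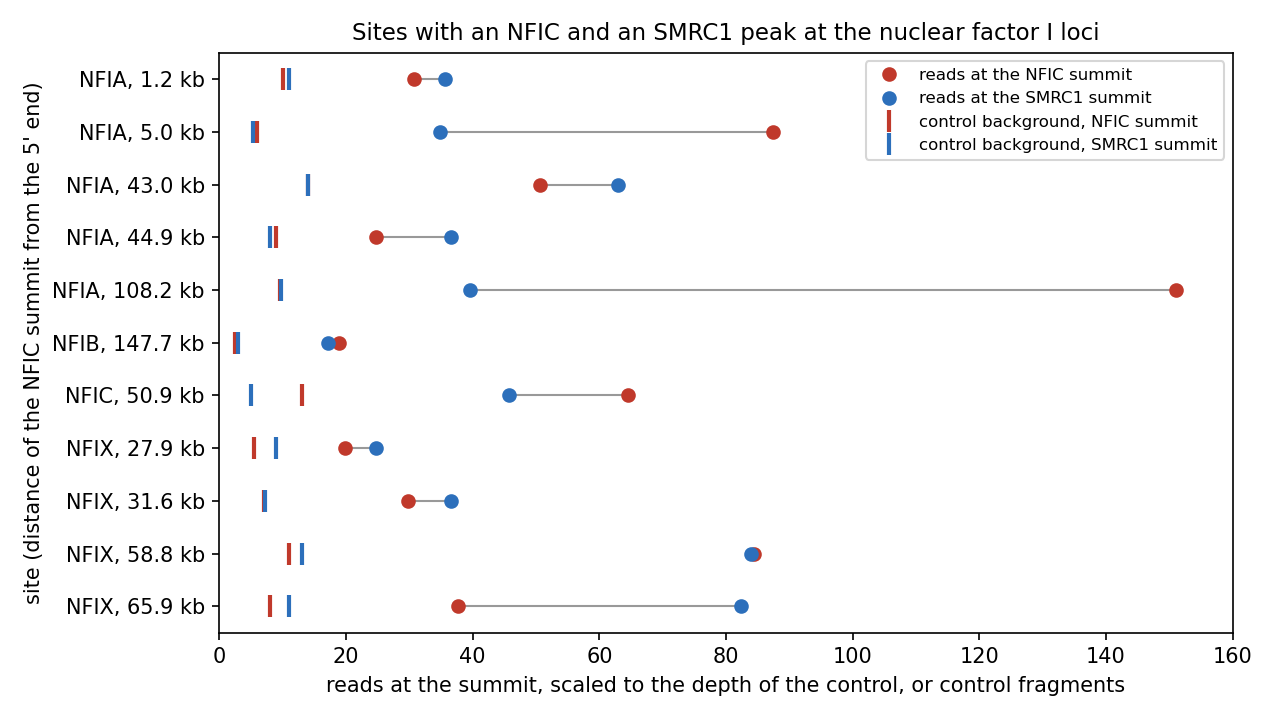
Reads at the NFIC (red points) and SMRC1 (blue points) summits of the 11 shared sites, scaled to the depth of the control, with the control background at each summit as ticks (horizontal axis, reads or control fragments; vertical axis, site by gene and distance from the 5′ end). NFIC reads exceed SMRC1 reads most at 108.2 kb in NFIA (151 and 39.6), and SMRC1 reads exceed NFIC reads most at 65.9 kb in NFIX (82.3 and 37.7).

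NFIC peaks without an SMRC1 peak were also 11. They had a median fold of 4.77, with 20 median summit reads, and those at SMRC1 sites a median fold of 4.3 and 38 reads. Of the 11 peaks without overlap, 6 were in NFIA, 2 in NFIB, 2 at NFIC and 1 in NFIX. The NFIX peak near the 5′ end was the strongest of them, at a −log10 q of 28.38, and the next was the NFIC peak at 91.87 kb, at 9.969. The nearest SMRC1 summit was between 1.5 kb (NFIA, 46.43 kb) and 29.9 kb (NFIC, 91.87 kb) away.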

How the data were processed

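Peak lists of 3 ChIP-seq libraries from HepG2 were used, 1 library per antibody. The submitters' processing notes name hg19 with MACS2 2.1.1, Bowtie 1.1.2, deepTools and SAMtools. Which settings and control library applied is not given in the sources used here. Per the authors' deposited lists, in narrowPeak order, each peak has a score (10 times its −log10 q), a fold or ratio of summit reads over background (with 1 added to each, as the recovery below implies), a −log10 p and a −log10 q, which corresponds to a q-value.

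Gene windows came from stated hg19 positions with 10 kb added either side, and strand and neighbours from RefSeq. Summit reads and background were recovered from the deposited fold and p-value, taking reads as whole within 0.01 after scaling. A single solution existed for 22 of 22 NFIC, 37 of 40 SMRC1 and 2 of 2 SATB1 members, and the 3 others have no reads printed. The ChIP depth relative to the control was 1.01 for NFIC and 1.29 for SMRC1. The total depth is unknown. Recovery, window counts and overlaps were tested on simulated data.

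Peaks overlapped when they shared 1 bp. Densities have exact Poisson and shares exact Clopper-Pearson 95% intervals. Tiles ran end to end from the first base of each of 24 chromosomes to its last peak. List and chromosome densities were taken over the same lengths. At each locus the text names the strongest peak of each list, peaks within 1 kb of the 5′ end, every NFIC peak (the 5 highest where over 10), and sites of all 3 lists; any other named peak was picked with its value in view. The members and lists were chosen with earlier results of these data known. Protein sequences were not analysed here. Computations used scipy 1.17.1, pandas 2.3.3 and numpy 2.4.6 in Python 3.11.15, and plots matplotlib 3.10.9.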

Additional observations from a re-analysis of the deposited data

How the results depend on the processing

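With a −log10 q of at least 10, the NFIC peaks numbered 3 at NFIA, 0 at NFIB, 1 at NFIC and 3 at NFIX, the SMRC1 peaks 18 and the SATB1 peaks 1. A flank of 50 kb gave 5 NFIC peaks at NFIC and 5 SATB1 peaks. Without a flank there were 2 NFIC peaks at NFIC. With summits within 200 bp the overlap was 18.2% of NFIC and 10.0% of SMRC1 peaks, against 40.3% and 18.7% of the whole lists. Both member shares came from the same 4 pairs, and further pairs lay just beyond that distance. In lists cut to 3296 peaks each, 5 NFIC and 2 SMRC1 members were left, and the overlap was 20% and 50%, against 20.1% and 19.9% of all peaks in those lists. Of the 39 values under other settings, 27 moved by at most 1.5 times, stayed within the interval of the share, or, for the median rank, moved by less than the spread between peaks. No paired analysis was possible because each antibody had 1 library.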
